A study of Homo sapiens with 6 samples.

Results

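The genes described here encode caspases and proteins that activate or restrain them: the caspases CASP2, CASP6 and CASP9, the scaffold gene APAF1 and the inhibitor of apoptosis (IAP) genes BIRC2, BIRC3 and XIAP. They were chosen by gene symbol in the annotation of the array, and 6 of the 7 genes were measured by 20 of its 49386 probe sets, among 18239 genes in all. No probe set was annotated to BIRC3 alone, and it was not analysed here. The arrays held RNA of HK-2 cells, an established human line from the proximal tubule of the kidney, grown without serum in a keratinocyte medium to which bovine pituitary extract and epidermal growth factor were added. Cells were left untreated (2 arrays, the control), or were given 50 μM cisplatin, a platinum drug that crosslinks DNA, for 6 h (2 arrays) or for 24 h (2 arrays). The labels give no culture time for the control and no control for each time, so cisplatin and time in culture cannot be told apart, and both times were compared with the same control arrays. The arrays of a group are labelled as biological replicates, without a word on separate cultures, and p-values reflect only the spread among these arrays, which may be technical.

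Caspases are proteases that are made as inactive precursors. When mitochondria release cytochrome c, it binds APAF1, which assembles into the apoptosome and activates the initiator caspase-9. Caspase-9 then activates executioner caspases, which cut the proteins that hold the cell together. XIAP binds caspase-9 and the executioners and blocks them, while cIAP1 (the product of BIRC2) and cIAP2 (the product of BIRC3) act mainly as ubiquitin ligases in tumour necrosis factor signalling. Of the genes listed, CASP6 encodes an executioner, whereas CASP9 and CASP2 encode initiators.

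All signals are log2 values, and each gene is given by its brightest probe set over the 6 arrays. A gene was called changed at a Benjamini-Hochberg adjusted p under 0.05 in limma, in a fit of all genes. The fit draws the spread of each gene toward that of all genes. Standard errors and intervals thus do not show the gene's own spread alone. Arrays were set to one distribution, so every change is measured against the rest of an array. In bulk RNA, fewer cells with a transcript and less of it per cell cannot be told apart. Replicate arrays correlated at 0.996 to 0.998, and arrays of different groups at 0.961 to 0.985. The 36 probe sets for added spike-in RNA exceeded their control mean by 0.37 (6 h) and 0.89 (24 h), and the 9 hybridization spike-ins among them by 0.10 and 0.41. The 12 poly-A spike-ins did so by 0.54 and 1.21, and the 15 others by 0.40 and 0.91. These last sets were dim in control, at 4.21 and 3.84, against 9.40 for the hybridization spike-ins. Probe sets designed as nonspecific background lay at 2.92. Scaling to all spike-ins, used below, thus rests in good part on dim probe sets. The median change over all genes, 0.03 at 6 h and 0.10 at 24 h, became −0.34 and −0.78 after scaling to all spike-ins. The share of higher genes among those called then went from 46.9% to 6.31% at 6 h, from 57.5% to 3.55% at 24 h and from 55.9% to 3.46% between the times. With the hybridization spike-ins alone these shares were 30.4%, 15.0% and 11.4%, and with housekeeping genes 32.9%, 51.4% and 61.4%. Of the tubular and epithelial markers, KRT8, KRT18, KRT19, PAX8, CDH2 and EPCAM lay at 9.02 to 11.65 in control cells, while CDH1 (3.36) and PAX2 (3.66) were dim. Of the 8 measured, 4 were lower at 6 h and 5 at 24 h, beside 15.8% and 23.0% of all genes. KRT19 was at −2.12 at 24 h (limma adjusted p = 3.62e-07). The 7 markers of differentiated proximal tubule lay between 3.52 (LRP2) and 4.58 (SLC5A2), and of the 4 leukocyte markers 3 lay between 2.92 (PTPRC) and 3.75 (CD3E). CD68, a lysosomal protein of macrophages, lay at 7.71 and was higher at 24 h (0.97, adjusted p = 5.16e-05). The marker values moved with the groups, and their part in the results below was not tested.

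Cisplatin was followed by a fall of XIAP at both times, a smaller fall of CASP6 and a late rise of APAF1, while CASP2, CASP9 and BIRC2 passed the test in no comparison. At 6 h, 2 of the 6 genes were lower and 0 higher, beside 15.8% lower, 14.0% higher and 29.8% changed among all 18239 genes. At 24 h, 2 were lower and 1 higher, beside 23.0%, 31.2% and 54.2%. Between the times, 1 was lower and 1 higher, beside 16.7%, 21.2% and 37.9%. The median change of the 6 genes was −0.14 at 6 h and 0.03 at 24 h, against 0.03 and 0.10 over all genes. With so many genes called, these counts do not set the 6 genes apart from the rest, and the description below is of single genes.

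**Figure D1:**
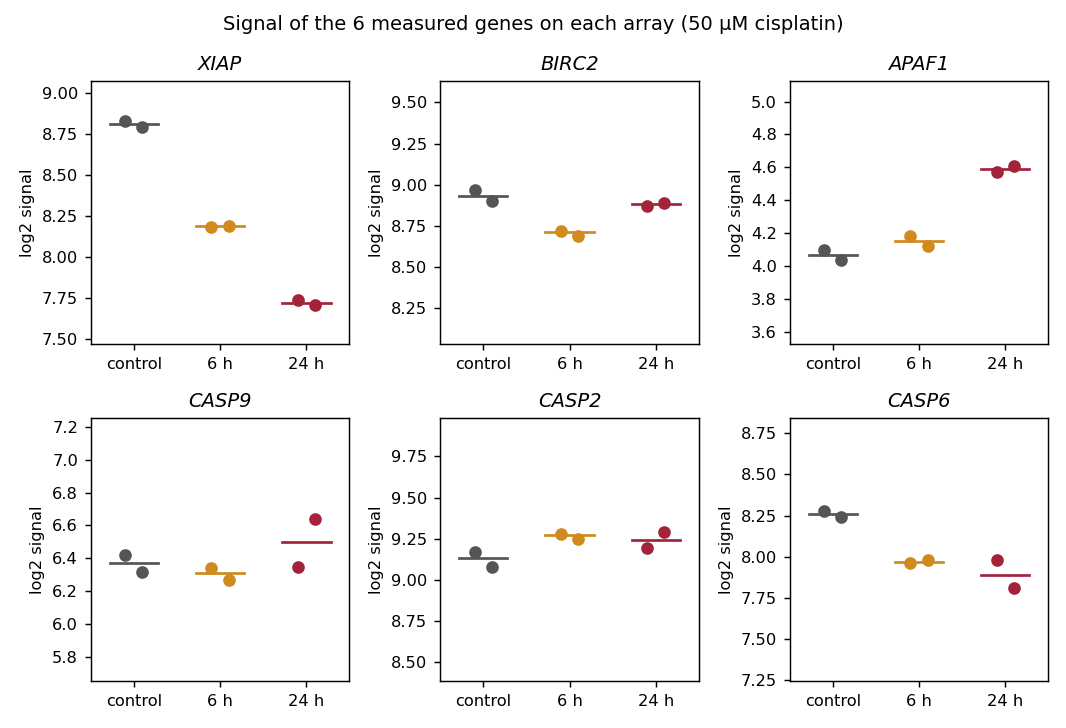
Log2 signal of the brightest probe set of each of the 6 measured genes on each array, with the group mean as a line, for control cells and for 6 h and 24 h of 50 μM cisplatin. XIAP stepped down at each time, from 8.81 through 8.19 to 7.72, whereas APAF1 stayed at 4.07 and 4.15 and was at 4.59 at 24 h.

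Sequence upstream of the start site is shown for the 3 genes that passed the test, XIAP and CASP6, which were lower at both times, and APAF1, which was higher at 24 h. Each is the 250 bases before a RefSeq start site in GRCh38.p14, 5′ to 3′ on the strand of the gene. The region of XIAP is chrX:123859458-123859707 on the plus strand, that of CASP6 is chr4:109703446-109703695 on the minus strand and that of APAF1 is chr12:98645040-98645289 on the plus strand. Capitals mark matches to the GC box (GGGCGG) and the CCAAT box (CCAAT) on either strand.
XIAP: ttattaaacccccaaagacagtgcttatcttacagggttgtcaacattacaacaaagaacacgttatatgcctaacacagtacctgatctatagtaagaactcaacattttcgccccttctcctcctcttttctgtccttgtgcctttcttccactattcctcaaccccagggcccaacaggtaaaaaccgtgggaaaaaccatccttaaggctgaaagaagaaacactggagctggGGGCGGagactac
CASP6: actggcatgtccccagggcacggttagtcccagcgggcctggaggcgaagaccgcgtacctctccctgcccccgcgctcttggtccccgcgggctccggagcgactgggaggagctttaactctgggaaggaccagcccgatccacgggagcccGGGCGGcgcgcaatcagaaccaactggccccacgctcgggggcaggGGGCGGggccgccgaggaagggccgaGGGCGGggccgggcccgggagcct
APAF1: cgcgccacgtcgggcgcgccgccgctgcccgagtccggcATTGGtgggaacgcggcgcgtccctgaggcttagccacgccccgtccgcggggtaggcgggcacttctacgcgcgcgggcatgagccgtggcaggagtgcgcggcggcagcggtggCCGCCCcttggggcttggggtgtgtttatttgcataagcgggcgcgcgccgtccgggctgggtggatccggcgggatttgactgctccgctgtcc
The XIAP window shown is that of the first of 3 RefSeq start sites and held 1 GC box, which began 13 bases before the start, in 44.8% GC. The windows of the other sites held 0 and 2 GC boxes, in 69.6% and 57.6% GC. The last of these windows overlaps the one shown, and its box at 119 bases is that same box. CASP6 held 3 GC boxes, at 96, 50 and 24 bases before the start, in 74% GC. APAF1 held a GC box at 95 bases and a CCAAT box at 211 bases, in 73.6% GC. A GC box was present in 42.6% of 35116 such windows and a CCAAT box in 32%, so neither is rare. The TATA box (TATAAA, 10.7% of windows) and the cyclic AMP response element (TGACGTCA, 1.65%) were not found in these 3 windows. An element with the latter letters lay 167 bases before the second RefSeq start site of BIRC2. These matches are descriptions of letters and not of binding.

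XIAP, the IAP that inhibits caspases directly, had a log2 signal of 8.83 and 8.79 on the control arrays, 8.18 and 8.19 at 6 h, and 7.74 and 7.71 at 24 h. Every treated array lay below both control arrays, and both 24 h arrays lay below both 6 h arrays. The fall was 1.54-fold at 6 h (log2 −0.63, standard error 0.08, 95% interval −0.80 to −0.45, limma adjusted p = 0.000377). It was 2.13-fold at 24 h (−1.09, standard error 0.08, −1.26 to −0.91, adjusted p = 7.07e-06). The further fall from 6 h to 24 h was 1.38-fold (−0.46, −0.64 to −0.29, adjusted p = 0.00199). XIAP was the one gene of the 6 that reached a 2-fold change. Among all genes, 7.66% had a lower value than XIAP at 6 h and 6.52% at 24 h. It passed as lower at both times with each scaling, at −1.97 at 24 h with all spike-ins, −1.50 with the hybridization spike-ins and −1.14 with housekeeping genes.

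The 5 probe sets of XIAP did not move alike. The probe set above carries the suffix that Affymetrix gives to sets specific to 1 transcript. A second, whose probes may also bind other transcripts, had 8.62 and 8.55 in control, 8.40 and 8.35 at 6 h, and 7.64 and 7.62 at 24 h. Its arrays were separated at both times, but over all probe sets only the 24 h fall passed (−0.21, adjusted p = 0.128 at 6 h, and −0.95, adjusted p = 5.88e-05 at 24 h). Another, which matches several transcripts, had 8.26 and 8.14 in control, 7.85 on both 6 h arrays, and 7.03 and 6.86 at 24 h. It fell at both times, by 0.35 (adjusted p = 0.0348) and 1.26 (adjusted p = 2.98e-05) on the log2 scale. The remaining sets were dim. One had 4.05 and 4.20 on the control arrays and 4.37 and 4.49 at 24 h (0.31, adjusted p = 0.0562), and was higher at 24 h than at 6 h (0.36, adjusted p = 0.0463). The other had 3.14 and 3.36 in control and 3.44 and 3.35 at 24 h (0.15, adjusted p = 0.274). For comparison, 23 probe sets designed as nonspecific background averaged 2.92 in control, 2.90 at 6 h and 3.19 at 24 h. With the mean of all probe sets in place of the brightest, the change of XIAP was −0.26 at 6 h (adjusted p = 0.0195) and −0.57 at 24 h (adjusted p = 0.000114).

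**Figure D2:**
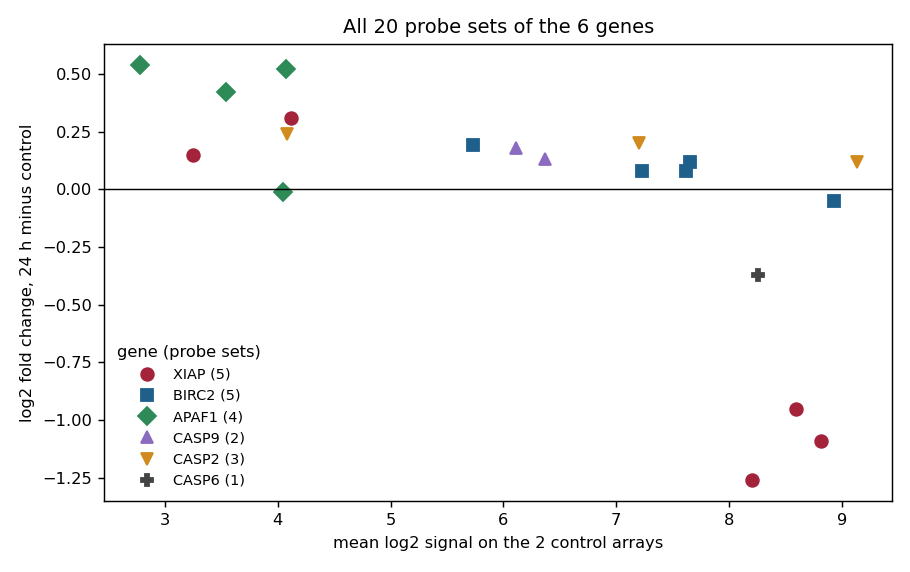
Log2 fold change at 24 h (vertical axis) against the mean log2 signal on the 2 control arrays (horizontal axis) for all 20 probe sets, with the gene shown by colour and shape. The 3 bright XIAP sets lie between −1.26 and −0.95 and the dim ones at 0.15 and 0.31, while the 5 BIRC2 sets lie between −0.05 and 0.19.

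BIRC2, which encodes cIAP1, had 8.97 and 8.90 in control, 8.72 and 8.69 at 6 h, and 8.87 and 8.89 at 24 h. The 6 h arrays lay below all others, and the 24 h arrays lay just below the control arrays. The difference at 6 h was −0.23 (standard error 0.08, 95% interval −0.40 to −0.05) and missed the threshold (adjusted p = 0.0608). At 24 h it was −0.05 (−0.23 to 0.12, adjusted p = 0.585), and between the times it was 0.17 (adjusted p = 0.117). All 5 probe sets were below control at 6 h, by 0.05 to 0.23, and all 5 were above 6 h at 24 h, by 0.16 to 0.25. Against control at 24 h, 4 were above and 1, the brightest, was below (−0.05 to 0.19). None of these differences passed over all probe sets. The 6 h difference of the brightest set passed in limma with trend and robust settings (adjusted p = 0.00902) and with a filter on dim probe sets (adjusted p = 0.0206). It also passed with scaling to housekeeping genes (−0.31, adjusted p = 0.0197), to the hybridization spike-ins (−0.32, adjusted p = 0.0338) and to all spike-ins (−0.60, adjusted p = 0.000742). It did not pass with the replicate block (adjusted p = 0.0949) or with only the groups compared (adjusted p = 0.0692). As the mean of all probe sets BIRC2 was at −0.12 at 6 h (adjusted p = 0.235). With the spike-in scalings BIRC2 was also lower at 24 h (−0.46, adjusted p = 0.00142, and −0.94, adjusted p = 1.78e-06). The step between the times passed with trend and robust settings (adjusted p = 0.0413) and as the mean of the probe sets (0.21, adjusted p = 0.0447), and was at −0.34 with scaling to all spike-ins (adjusted p = 0.0206).

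APAF1, the apoptosome scaffold, had 4.10 and 4.04 in control, 4.18 and 4.12 at 6 h, and 4.57 and 4.61 at 24 h. The 24 h arrays stood above all others, and the 6 h arrays stood just above control. The difference at 6 h was 0.08 (standard error 0.08, 95% interval −0.10 to 0.26, adjusted p = 0.510). At 24 h APAF1 rose 1.43-fold (0.52, standard error 0.08, 0.34 to 0.70, adjusted p = 0.000648), but it was at 0.11 (adjusted p = 0.400) with scaling to the hybridization spike-ins and at −0.37 (adjusted p = 0.0103) with scaling to all spike-ins. The step from 6 h to 24 h was 1.35-fold (0.44, 0.26 to 0.62, adjusted p = 0.00313), with 0.12 and −0.08 under the same scalings. Relative to other genes, 59.9% lay below APAF1 at 6 h and 85.3% at 24 h. Its signal was low. Among the 4560 genes with a mean signal between 3.58 and 5.35, 33.2% were higher and 13.8% lower at 24 h, with a median of 0.16. The background probe sets were higher by 0.27 as a mean of 23 sets, which include bright ones. Their median was 2.45 on both control arrays and 2.53 and 2.56 at 24 h. Their highest value went from 7.07 and 7.13 in control to 8.12 and 8.37 at 24 h. Whether this background took part in the rise of APAF1 was not tested. Of its 4 probe sets, 3 were higher at 24 h, by 0.42 to 0.54 (adjusted p = 0.0160, 0.00159 and 0.00169). The other had 4.01 and 4.09 in control and 3.85 and 4.24 at 24 h, a range that took in both control arrays (−0.01, adjusted p = 0.973).

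CASP9, the initiator that the apoptosome activates, had 6.42 and 6.32 in control, 6.34 and 6.27 at 6 h, and 6.35 and 6.64 at 24 h. Both treated groups overlapped with control, the 24 h arrays lay above the 6 h arrays, 1 of them just so, and the second 24 h array was the highest of the 6. The difference was −0.06 at 6 h (95% interval −0.31 to 0.18, adjusted p = 0.727) and 0.13 at 24 h (−0.12 to 0.37, adjusted p = 0.345). With scaling to all spike-ins CASP9 was lower at 6 h (−0.43, adjusted p = 0.0144) and at 24 h (−0.76, adjusted p = 6.12e-05). With the hybridization spike-ins it was lower at 24 h alone (−0.28, adjusted p = 0.0462), and with housekeeping genes at neither time. Without the first 24 h array the step between the times was 0.33 (adjusted p = 0.0425), against 0.19 (adjusted p = 0.201) with both. Without the second 24 h array it was 0.05 (adjusted p = 0.764), and the 24 h difference from control was −0.01 (adjusted p = 0.919). The second 24 h array also had the largest gap between the 3′ and 5′ probe sets of beta-actin, which widens as RNA degrades, at 2.83 against 1.11 to 2.07 on the other arrays. For GAPDH the gap was 0.39 against 0.25 to 0.30. The same array held the highest values of APAF1 and CASP2 and the lowest of CASP6 and XIAP. Whether RNA quality bears on the values of any of these genes was not tested. The second probe set of CASP9 gave 0.06 and 0.18 and did not pass either.

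CASP2, an initiator that is activated on a platform of PIDD1 and the adaptor CRADD rather than on the apoptosome, had 9.17 and 9.08 in control, 9.28 and 9.25 at 6 h, and 9.19 and 9.29 at 24 h. Every treated array lay above both control arrays, by a small margin. The difference was 0.14 at 6 h (95% interval −0.05 to 0.33, adjusted p = 0.259) and 0.12 at 24 h (−0.07 to 0.31, adjusted p = 0.259). All 3 probe sets were above control at both times, by 0.12 to 0.33 and by 0.12 to 0.24, and none passed. With scaling to the hybridization spike-ins or to all spike-ins CASP2 was below control at 24 h (−0.29 and −0.77).

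CASP6, the executioner, which cuts the nuclear lamin A, had 8.28 and 8.24 in control, 7.96 and 7.98 at 6 h, and 7.98 and 7.81 at 24 h. Every treated array lay below both control arrays, and the second 24 h array was the lowest. The fall was 1.22-fold at 6 h (−0.29, standard error 0.09, 95% interval −0.48 to −0.09, adjusted p = 0.0381) and 1.29-fold at 24 h (−0.37, standard error 0.09, −0.57 to −0.17, adjusted p = 0.00706). The times did not differ by the test (−0.08, adjusted p = 0.495), though they did with scaling to the hybridization spike-ins (−0.39, adjusted p = 0.00869) and to all spike-ins (−0.60, adjusted p = 0.000462). The 6 h call was lost without the first or second control array (adjusted p = 0.132 and 0.108), without the first or second 6 h array (adjusted p = 0.152 and 0.136), and over all probe sets (adjusted p = 0.0646). The 24 h call held without any 1 array (−0.45 to −0.28). CASP6 has a single probe set here, of the kind whose probes may bind other transcripts.

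**Figure D3:**
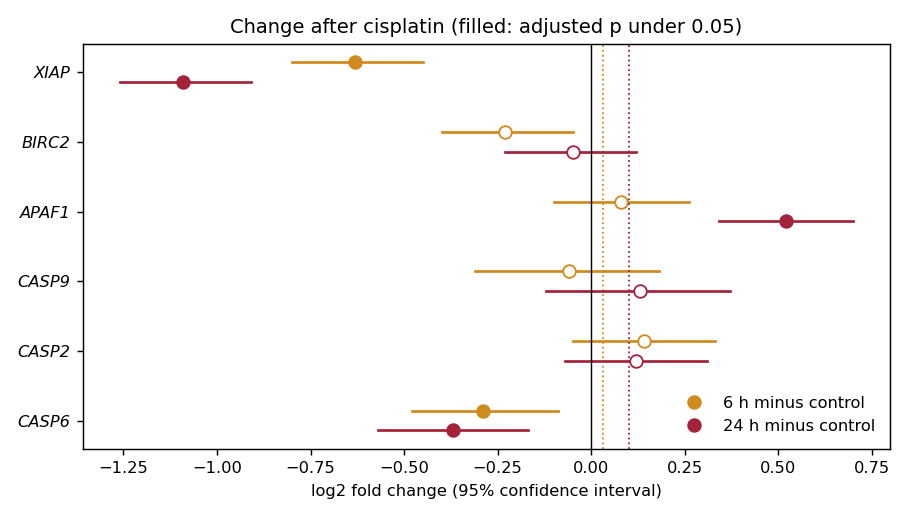
Log2 fold change of each gene at 6 h and at 24 h against control, with its 95% confidence interval, filled where the adjusted p was under 0.05, and dotted lines at the median of all genes (0.03 and 0.10). XIAP lies farthest from 0 at both times (−0.63 and −1.09), and the intervals of CASP2 and CASP9 span 0.

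Some other genes followed nearly the same course over the 6 arrays, measured as the root mean square difference after each gene was set to its own control mean. Closest to XIAP were ASXL2 (0.0364), FNBP1L (0.0431) and ITPRIPL2 (0.0450), which lay between −0.69 and −0.64 at 6 h and between −1.11 and −1.05 at 24 h. Closest to APAF1 were LMNTD2 (0.0222), SEMA6C (0.0224) and LAMP1 (0.0234), all at 0.10 at 6 h and at 0.50 to 0.54 at 24 h. DHX36 (0.0226), PGAP4 (0.0311) and KRR1 (0.0323) were closest to CASP6. TXLNB, SLC35B2 and OR2A5 were closest to BIRC2, PALLD, CLTA and KRT36 to CASP2, and OR2Y1, IL21R and APOBR to CASP9. These are likenesses between 3 groups of arrays and describe no more than that.

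The genes around these proteins were taken from 8 lists with 73 genes, of which 66 were measured. The 6 h test called 6 genes higher and 19 lower, and the 24 h test 19 higher and 25 lower. Of all genes, 14.0% were higher and 15.8% lower at 6 h, against 31.2% and 23.0% at 24 h, and the counts of the lists below are to be read beside these shares. The medians were −0.06 and 0.05, against 0.03 and 0.10 over all genes.

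**Figure D4:**
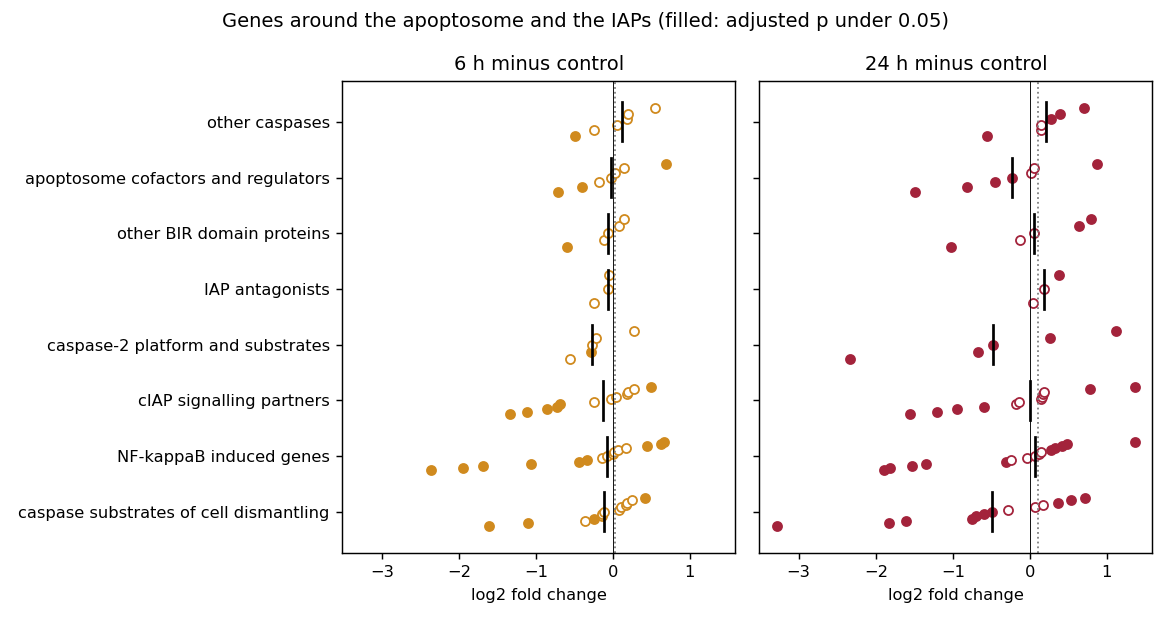
Log2 fold change at 6 h (left) and 24 h (right) of the 66 measured genes of the 8 lists, 1 point per gene, filled where the adjusted p was under 0.05, with a bar at the median of each list, a solid line at 0 and a dotted line at the median of all genes. The lowest points are CXCL2 at 6 h (−2.36) and PTK2 at 24 h (−3.28).

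Among the apoptosome cofactors and regulators (7 genes), the test called 1 higher and 2 lower at 6 h, then 1 and 4 at 24 h (medians −0.02 and −0.23). CYCS, which encodes cytochrome c, did not pass at either time (0.15, adjusted p = 0.210, and 0.06, adjusted p = 0.527). AVEN, which binds APAF1 and restrains the apoptosome, went from 7.90 through 7.50 to 6.42 and was 2.80-fold lower at 24 h (−1.49, standard error 0.12, adjusted p = 1.33e-05). ANP32A, which promotes apoptosome formation, fell by 0.71 at 6 h (adjusted p = 0.000195) and by 0.82 at 24 h (adjusted p = 3.74e-05). CSE1L, which acts with ANP32A, and PTMA, which restrains the apoptosome, were also lower at 24 h (−0.45, adjusted p = 0.00142, and −0.23, adjusted p = 0.0353). CARD8 rose by 0.69 at 6 h (adjusted p = 0.00129) and by 0.87 at 24 h (adjusted p = 0.000153), but was at −0.01 at 24 h with scaling to all spike-ins, and at 0.08 and 0.18 as the mean of its probe sets (adjusted p = 0.438 and 0.0556).

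Among the other BIR domain proteins (5 genes), the family that shares the fold of the IAPs, the test called 0 higher and 1 lower at 6 h, then 2 and 1 at 24 h. BIRC6, a giant ubiquitin conjugating enzyme that restrains caspases, fell by 0.59 at 6 h (adjusted p = 0.00218) and by 1.02 at 24 h (adjusted p = 4.39e-05). BIRC5, which encodes survivin, a protein of cell division, went from 8.99 in control to 9.07 at 6 h, and was higher at 24 h (0.79, adjusted p = 4.15e-05), but at −0.09 with scaling to all spike-ins. BIRC7 was higher at 24 h (0.64, adjusted p = 0.00458) and at −0.24 with that scaling, and at 0.23 as the mean of its probe sets (adjusted p = 0.112). Of the 3 measured antagonists of the IAPs, none passed at 6 h. HTRA2, a mitochondrial protease that displaces XIAP, was at −0.25 at 6 h (adjusted p = 0.0615) and rose by 0.38 at 24 h (adjusted p = 0.00531), a rise that became −0.03 and −0.50 with scaling to the hybridization and to all spike-ins. DIABLO, which encodes the antagonist SMAC, was at −0.06 and 0.04 and did not pass (adjusted p = 0.665 and 0.716).

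The caspase-2 platform and its substrates (5 genes) held 0 called higher and 1 lower at 6 h, then 2 and 3 at 24 h (medians −0.27 and −0.48). The platform genes went in opposite directions at 24 h. PIDD1 went from 5.66 through 5.94 to 6.79, and was 2.18-fold higher at 24 h (1.12, standard error 0.16, adjusted p = 0.000426), against 0.24 (adjusted p = 0.183) with scaling to all spike-ins. CRADD went from 6.94 through 6.39 to 4.61 and was 5.04-fold lower at 24 h (−2.33, standard error 0.19, adjusted p = 1.70e-05). BID, whose product carries caspase signals to mitochondria, fell by 0.29 at 6 h (adjusted p = 0.0316) and 0.67 at 24 h (adjusted p = 0.000213), and its 6 h call was lost without the first control array (adjusted p = 0.150) and without the first or second 6 h array (adjusted p = 0.155 and 0.102). MDM2, the ubiquitin ligase of p53, was lower at 24 h (−0.48, adjusted p = 0.00537).

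Of the other caspases (6 measured), the test called 0 higher and 1 lower at 6 h, then 3 and 1 at 24 h (medians 0.12 and 0.21). CASP8, the initiator of the death receptor pathway, went from 7.46 to 6.96 at 6 h and was lower at both times (−0.49, adjusted p = 0.00406, and −0.56, adjusted p = 0.00102), but at −0.12 (adjusted p = 0.260) and 0.14 as the mean of its probe sets. The inflammatory caspases CASP1, CASP4 and CASP5 were higher at 24 h by 0.27, 0.70 and 0.39, from dim control signals of 2.96, 3.63 and 2.36. With scaling to all spike-ins CASP4 was at −0.19 and CASP5 at −0.49, while CASP1 was not run with any alternative. As the mean of its probe sets CASP4 was at 0.18 (adjusted p = 0.0553). Without the first or second control array CASP4 did not pass (adjusted p = 0.0773 and 0.0996), nor did it without the second 24 h array (adjusted p = 0.0915). CASP5 did not pass without the second control array (adjusted p = 0.0980) or the first 24 h array (adjusted p = 0.0869).

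The partners of the cIAPs in tumour necrosis factor signalling (12 of 14 measured) held 1 called higher and 5 lower at 6 h, then 2 and 4 at 24 h (medians −0.13 and 0.00). TRAF3, the adaptor through which cIAPs degrade the kinase NIK, fell by 0.86 at 6 h (adjusted p = 0.000222) and by 1.56 at 24 h (adjusted p = 3.28e-06). MAP3K14, which encodes NIK, fell by 0.69 (adjusted p = 0.00105) and 1.20 (adjusted p = 1.86e-05). TRAF1 went from 5.19 to 3.86 at 6 h (−1.33, adjusted p = 3.47e-05) and was less far below control at 24 h (−0.59, adjusted p = 0.00143, or −0.19, adjusted p = 0.0547, as the mean of its probe sets). OTUD7B, which removes ubiquitin from TRAF3, was lower at 6 h (−1.11, adjusted p = 0.000171) and at −0.18 at 24 h (adjusted p = 0.232). CYLD, a deubiquitinase that restrains NF-kappaB, rose by 0.50 (adjusted p = 0.00397) and 1.36 (adjusted p = 6.10e-06), and was above control with every scaling, by 0.48 at 24 h with all spike-ins. As the mean of its probe sets, CYLD was at 0.06 at 6 h (adjusted p = 0.600). TNFAIP3, which encodes the deubiquitinase A20, was higher at 24 h (0.78, adjusted p = 7.82e-05), and at −0.10 with scaling to all spike-ins.

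Genes that NF-kappaB is known to induce (15 genes, BIRC3 belongs to this class too) held 3 called higher and 6 lower at 6 h, then 5 and 5 at 24 h (medians −0.07 and 0.07). The secreted factors CXCL2, IL6 and CXCL8 were far below control at 6 h (−2.36, −1.94 and −1.69) and at 24 h (−1.81, −1.89 and −1.53). They passed at both times, whereas the secreted factors CXCL1 and CCL2 did not fall. CXCL1 was at 0.00 at 6 h (adjusted p = 0.996) and was higher at 24 h (0.48, adjusted p = 0.00396). This rise turned to a fall with scaling to all spike-ins. CCL2, dim in control at 2.68, was at 0.17 and 0.12 and did not pass. SOD2, the mitochondrial superoxide dismutase, rose by 0.62 at 6 h (adjusted p = 0.000632) and 1.36 at 24 h (adjusted p = 3.41e-06), and remained above control with scaling to all spike-ins (0.25 and 0.47). ICAM1, an adhesion molecule, was higher at both times (0.66 and 0.42) but at −0.47 at 24 h with that scaling and at −0.05 at 24 h as the mean of its probe sets. The list thus held members that changed in opposite directions at the same time.

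Among the caspase substrates of cell dismantling (13 of 15 measured), the test called 1 higher and 3 lower at 6 h, then 3 and 7 at 24 h (medians −0.12 and −0.49). PTK2, the focal adhesion kinase gene, went from 9.20 through 7.60 to 5.93, with log2 changes of −1.61 at 6 h (adjusted p = 8.62e-06) and −3.28 at 24 h (adjusted p = 1.15e-07). LMNB1, which encodes lamin B1, went from 8.61 through 7.51 to 6.78 (adjusted p = 3.17e-05 at 6 h), a fall of 1.83 at 24 h (adjusted p = 7.33e-07). LMNA, the lamin gene whose product caspase-6 cuts, did not pass (0.10 and 0.07). DFFB, the nuclease that cuts DNA in apoptosis, was lower at 24 h (−1.61, adjusted p = 2.35e-05), while its inhibitor gene DFFA did not pass (0.17, adjusted p = 0.0973). SPTAN1 and ACIN1 were higher at 24 h (0.72, adjusted p = 0.000189, and 0.53, adjusted p = 0.00176), and at −0.17 and −0.35 with scaling to all spike-ins. RNA levels of substrates say nothing of their cleavage, which these arrays did not measure.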

How the data were processed

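Total RNA was labelled with a 3′ in vitro transcription kit and hybridized to single-colour Affymetrix U219 arrays. The deposited log2 values were made by the authors with RMA (robust multi-array average) in Affymetrix Expression Console 1.1. Nothing was normalized again. Gene names are those of the annotation of the platform, brought up to date through Entrez numbers. Of 49386 probe sets, 45253 had 1 gene (45172 matched by that number), 1327 several, 2713 none here and 93 were controls. limma 3.58.1 under R 4.3.3 (lmFit, eBayes) fitted the 3 groups together over 18239 genes, and again over all probe sets that were not controls. The code of the gene tests was run on simulated arrays. Few genes were changed in them and no shift was common to all genes, so that run does not test the scalings used here. Sequences are RefSeq's, on GRCh38.p14. Tables and figures were made in Python 3.11.15 with pandas 2.3.3, numpy 2.4.6 and matplotlib 3.10.9.

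The genes, lists and alternatives were chosen with earlier results of these data known. By rule, at each time no more than 2 rises and 2 falls of a list were named, 29 genes. CASP1, CCL2, CD3E, CSE1L, CXCL8, CYCS, DFFA, DFFB, DIABLO, LMNA, MDM2, PTMA and KRT19 were named outside it, after their values were seen. Their own changes were not run under the alternatives. The alternatives were a replicate block, the mean of all probe sets, trend and robust eBayes, only the groups compared, a filter (log2 of at least 5 on at least 2 arrays), 3 scalings, the fold rule of the paper and leaving out each array. The number of arrays limits the precision.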

Additional observations from a re-analysis of the deposited data

Results flagged for a closer look

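The changes at 24 h and at 6 h share the control arrays. They differed by the test between the times (limma, adjusted p under 0.05 over all genes) for 25 of the 35 genes named by rule and measured. Of all genes, 37.9% differed. Of the 35 genes, 29 were named for called changes at 6 h or 24 h in these same arrays. Their count was raised by that choice and cannot be set against the share of all genes. Differences are given as the log2 value at 24 h minus that at 6 h, and no explanation was tested. Of the caspase and IAP genes themselves, APAF1 differed by 0.44 and XIAP by −0.46. Around the apoptosome and the IAPs, AVEN differed by −1.08, BIRC6 by −0.43, BIRC5 by 0.71, BIRC7 by 0.50, HTRA2 by 0.63 and CASP5 by 0.35. On the caspase-2 platform and among its substrates, CRADD differed by −1.79, PIDD1 by 0.85, BID by −0.38 and GOLGA3 by 0.48. Among the partners of the cIAPs, CYLD differed by 0.87, OTUD7B by 0.93, TRAF1 by 0.74, TNFAIP3 by 0.60, TRAF3 by −0.70 and MAP3K14 by −0.52. Among genes that NF-kappaB induces, SOD2 differed by 0.74, CXCL2 by 0.55 and CXCL1 by 0.48. Among caspase substrates, PTK2 differed by −1.67, LMNB1 by −0.74, SPTAN1 by 0.30 and ACIN1 by 0.28. For APAF1 the difference was −0.08 with scaling to all spike-ins, while for XIAP it was −0.98.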

How the results depend on the processing

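Of the 6 genes, the number that passed was 2 (6 h), 3 (24 h) and 2 (24 h against 6 h). With the replicate block, 1 passed at 6 h (XIAP), since CASP6 lost its call (adjusted p = 0.0507), and no other call of the 6 genes changed with the block. The replicate numbers did not pair the samples (correlations of deviations 0.05, −0.06 and −0.06), and with the block 5209, 9716 and 6689 genes passed against 5435, 9886 and 6906. Leaving out each array gave 1 to 2 genes at 6 h. The filter on dim probe sets left out APAF1 and gave 1 between the times. Scaling to all spike-ins gave 4, 6 and 5 of the 6 genes, and 10937, 16700 and 13338 of all genes. Scaling to the hybridization spike-ins gave 5 at 24 h. The 2-fold rule with an unadjusted p under 0.01 gave 0, 1 and 0 of the 6, and 900, 2210 and 614 of all genes. These scalings subtract 1 value per array, so they shift all genes alike. With all spike-ins the sign turned at 6 h for CASP5 (−0.32), BIRC5 (−0.29) and CXCL1 (−0.37). At 24 h it turned for CASP2 (−0.77), CASP9 (−0.76), APAF1 (−0.37), CASP4 (−0.19), CASP5 (−0.49), CARD8 (−0.01), BIRC5 (−0.09), BIRC7 (−0.24), HTRA2 (−0.50), GOLGA3 (−0.63), TNFAIP3 (−0.10), ICAM1 (−0.47), CXCL1 (−0.41), SPTAN1 (−0.17) and ACIN1 (−0.35). Between the times, run for the 6 genes alone, it turned for CASP9 (−0.32), APAF1 (−0.08) and BIRC2 (−0.34). With the hybridization spike-ins it turned at 24 h for CASP2 (−0.29), CASP9 (−0.28), CASP5 (−0.02), HTRA2 (−0.03) and GOLGA3 (−0.16). With the mean of all probe sets it turned at 24 h for CASP8 (0.14) and ICAM1 (−0.05). For the 6 genes, 13 further values without a call changed sign. Across all alternatives, called genes numbered 0 to 5 for other caspases, 1 to 7 for the apoptosome list, 1 to 4 for other BIR proteins, 0 to 3 for antagonists, 2 to 5 for the caspase-2 list, 3 to 11 for cIAP partners, 5 to 15 for NF-kappaB induced genes and 3 to 12 for substrates at 24 h. At 6 h these ranges were 0 to 3, 0 to 6, 0 to 4, 0 to 3, 0 to 4, 2 to 8, 4 to 11 and 2 to 9. Causes were not tested. Dim probe sets near background limit what APAF1 can show.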
